A study of Bos taurus with 6 samples.

Results

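The positions described here are CpGs of the bovine autosomes that were read as unmethylated in blood monocytes and as methylated in both sperm and cultured fibroblasts. They were chosen among the 1542060 CpGs of chromosomes 1 to 29 that were covered by 5 to 500 reads in each of 6 reduced representation bisulfite sequencing (RRBS) libraries. For each cell type, the methylated reads of its 2 libraries were summed and divided by their summed coverage. Members were chosen by these percentages: a CpG was a member when its value was below 20 in monocytes, above 80 in sperm and above 80 in fibroblasts. This gave 8939 members, or 0.580% of the CpGs. All animals were Holstein cattle. The 2 sperm libraries came from commercial straws of different bulls, the 2 monocyte libraries from blood of different cows, purified with anti-CD14 beads, and the 2 fibroblast libraries from ear skin of different cows, grown in culture. Each library was thus from a separate animal. Only sperm was male and only fibroblasts had been cultured, and the monocyte libraries alone had 12 PCR cycles, against 14 for the 4 others. The effects of sex, culture and cycle number cannot be told apart from those of the cell type. In such bulk DNA, a percentage is a share of reads, so that a mixture of cells and partial methylation within cells cannot be told apart either. Coverage summed over all CpGs listed ranged from 45884839 to 78890776 per library. A read counts in this sum at each CpG it covers, so that it is not a number of reads. The tables hold no expression values and no gene annotation of their genome build, UMD3.1, was used, so that the labelled cell types were not checked against marker genes and positions are given by coordinates only.

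Most CpGs of mammalian genomes carry a methyl group on cytosine, whereas CpG islands at gene starts are usually free of it. Between these islands, short stretches of low methylation mark regulatory sequences such as enhancers, where bound transcription factors and TET enzymes keep or make the DNA unmethylated. In the monocyte lineage, factors such as PU.1 and C/EBP proteins are known to open such elements during differentiation. RRBS cuts the DNA at CCGG sites and therefore samples CpG-rich sequence more than the rest of the genome.

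The members were the low end of the monocyte values by choice, and their levels are a description. Averaged over members, methylation was 6.60% and 5.45% in the monocyte libraries. The sperm libraries averaged 97.9% and 97.6%, and both fibroblast libraries 91.7%. Sperm was therefore nearest to full methylation, with a median of 100% in both libraries, and fibroblasts lay lower, with medians of 93.8% and 93.3%. Over all 1542060 CpGs the averages were far closer to each other, with monocytes at 54.0% and 53.7%, sperm at 49.5% and 49.1% and fibroblasts at 46.1% and 46.6%. The plot of members by library shows this separation for each animal.

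**Figure D1:**
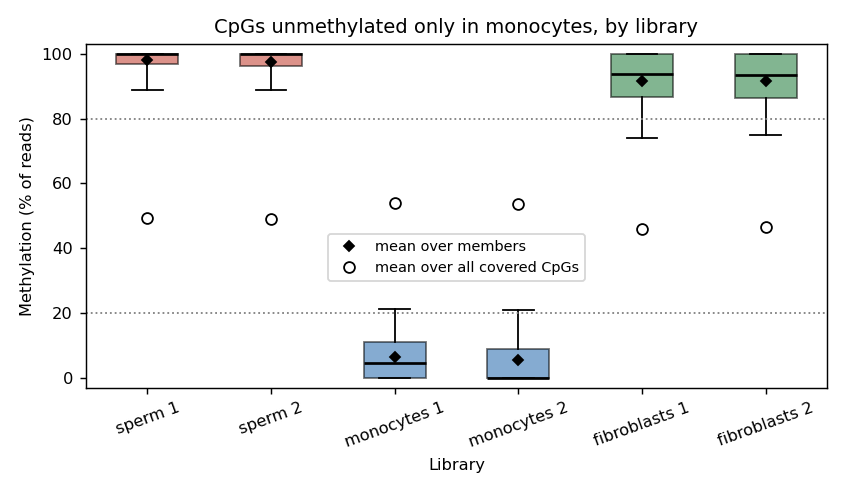
Methylation of the 8939 members in each of the 6 libraries, in percent of reads. Boxes span the 25th to 75th percentile with the median as a line, whiskers reach the 5th and 95th percentile, diamonds are means over members, open circles are means over all CpGs and dotted lines are the limits of 20% and 80% used to choose members. The monocyte means lie at 6.60% and 5.45%, and the means of the other libraries are at least 91.7%.

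In both monocyte libraries together, 2699 members (30.2%) had no methylated read. At the median summed monocyte coverage of 35 reads, 0 methylated reads allow a level of up to 8.57%, counting error only. Both sperm libraries were fully methylated at 4764 members (53.3%), and both fibroblast libraries at 1358 (15.2%). The full contrast, 0 in monocytes and 100% in the other 4 libraries, was found at 262 members (2.93%). Single libraries went past the limits at some members, because the choice was made on summed reads. This was so at 7.27% and 6.88% of the members in the monocyte libraries, at 1.03% and 1.35% in the sperm libraries and at 12.6% and 11.4% in the fibroblast libraries. All 6 libraries were within the limits at 5710 members (63.9%).

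The absolute difference between the 2 animals of a cell type averaged 3.41 points in sperm, 6.18 points in monocytes and 8.74 points in fibroblasts at the members. Over all CpGs it averaged 3.72, 5.41 and 8.79 points. At the members, the difference was thus a little smaller than elsewhere in sperm and fibroblasts and a little larger in monocytes. The limits on the summed reads leave little room for larger differences, so that these values are a description.

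The limits cut through a continuous range of values. Just inside the monocyte limit, a member of chromosome 29 at 1971812 was at 19.7% in monocytes, 96.2% in sperm and 89.9% in fibroblasts. Just outside it, a CpG of chromosome 1 at 44841913 was at 20% in monocytes, 98.3% in sperm and 91.2% in fibroblasts. The member nearest to both limits of methylated cells, on chromosome 11 at 101488809, was at 80.3% in sperm and 80.2% in fibroblasts, with 0% in monocytes. Within 1 point of the fibroblast limit lay 241 members inside and 376 CpGs outside, against 15 and 25 at the sperm limit and 109 and 272 at the monocyte limit. Few members thus owed their place to the sperm limit, and more of them to the fibroblast limit.

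The third cell type differed in how often it shared the state of the others. Of the 35437 CpGs below 20% in monocytes and above 80% in sperm, fibroblasts were below 20% at 11986 (33.8%), between the limits at 14512 (41.0%) and above 80% at the 8939 members (25.2%). Of the 12316 CpGs below 20% in monocytes and above 80% in fibroblasts, sperm was below 20% at 2716 (22.1%), between the limits at 661 (5.37%) and above 80% at the members (72.6%). Of the 404552 CpGs above 80% in both sperm and fibroblasts, monocytes were below 20% at the members (2.21%), between the limits at 20905 (5.17%) and above 80% at 374708 (92.6%). Intermediate values were most frequent when the third cell type was the cultured fibroblasts. The mirrored rules gave 22915 CpGs unmethylated only in fibroblasts and 55942 unmethylated only in sperm.

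Since the rule used all 6 libraries, the pattern was also read in animals that had not served to choose CpGs. In the 3 replicate 1 libraries alone, 9459 CpGs met the limits. In the replicate 2 libraries, which come from other animals, these CpGs averaged 8.78% in monocytes, 96.5% in sperm and 85.4% in fibroblasts. Of the 9459, 8080 (85.4%) were below 20% in the second monocyte library, 9139 (96.6%) were above 80% in the second sperm library and 6812 (72.0%) were above 80% in the second fibroblast library. All 3 limits were met again at 5710 (60.4%), whereas 0.617% of all CpGs met them in the replicate 2 libraries. Most of the loss was therefore in fibroblasts, and the monocyte and sperm values were found again at most of these CpGs. In the replicate 2 libraries alone, a likelihood-ratio test (Benjamini-Hochberg adjusted p under 0.01, difference of 25 points or more) called 8946 of the 9459 (94.6%) lower in monocytes than in sperm, against 4.27% of all CpGs. It called 8208 (86.8%) lower in monocytes than in fibroblasts, against 2.42% of all CpGs. The opposite direction was called at 16 and 26 of them. These tests compare single libraries, not cell types. With the libraries exchanged, 9515 CpGs were chosen in replicate 2 and 5710 of them (60.01%) met all limits in replicate 1. These are the same 5710 CpGs, those within the limits in all 6 libraries, so that this count is not a second reading. In the replicate 1 libraries alone, 8976 of the 9515 (94.3%) were called lower in monocytes than in sperm, against 4.3% of all CpGs, and 8298 (87.2%) lower than in fibroblasts, against 2.45%.

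Most members lay near another member. Joining members at most 1000 bp apart gave 2955 groups, of which 1288 were single CpGs, 523 were pairs and 1144 held at least 3 members. These 1144 groups held 6605 members (73.9%), and 141 groups held 10 or more. The median distance from a member to the next was 18 bp, and 79.9% had another member within 100 bp. Covered CpGs as a whole lay closer, with a median of 9 bp and 97.4% within 100 bp. So did those above 80% in all 3 cell types, with 13 bp and 89.8%. RRBS itself produces such clusters, because covered CpGs lie next to each other on the same fragments: 97.2% of all covered CpGs and 88.4% of the CpGs above 80% in all 3 cell types fell into groups of 3 or more. Among CpGs unmethylated only in sperm this share was 92.3%, and among those unmethylated only in fibroblasts it was 57.3%. In this share the members stood between the mirrored sets. Their longest span, 2687 bp, was shorter than that of the sperm set, 3546 bp, and of the fibroblast set, 5349 bp. These shares have no test, because neighbouring CpGs share fragments and reads.

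Groups with more members were closer to full contrast. Single members averaged 9.33% and 7.91% in the monocyte libraries, whereas members of groups of 10 or more averaged 4.71% and 3.78%. Fibroblasts were at 89.6% and 89.97% at single members and at 92.6% in both libraries in groups of 10 or more. Sperm changed least, from 97.4% and 97.1% to 98.0% and 97.6%. All 6 libraries were within the limits at 47.9% of single members and at 72.8% of members in groups of 10 or more. Group size and these levels both come from the values that the rule used, so that their order is a description. Monocyte coverage moved with group size as well, with a median of 31 summed reads at single members and 38 in groups of 10 or more, and its part in this order was not tested.

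Over the 1144 groups of 3 or more, the monocyte average of the members was below 20% in both libraries in 1109. The highest average of a monocyte library was 31.8%, the lowest of a sperm library 69.8% and the lowest of a fibroblast library 71.4%. The 2 monocyte libraries differed by more than 10 points in 117 groups, the fibroblast libraries in 127 and the sperm libraries in 16. Members are below 20% in monocytes by the rule, so that the spans are described by their other CpGs. A span held at least 1 covered non-member in 746 groups, and in 461 of these (61.8%) all such non-members were below 20% in monocytes. Counted by CpG and not by span, 39.8% of all covered CpGs were below 20% in monocytes, but 35.4% were so in all 3 cell types. The non-members in the spans were high in sperm, so that the share over all CpGs is not a like background for them.

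The spans of these groups held 9827 covered CpGs, of which 6605 were members and 3222 were not. At the non-members, sperm was at 95.5% and 95.3%, monocytes at 15.5% and 14.3% and fibroblasts at 68.9% and 68.5%. Fibroblasts were at or below 80% at 2404 of them (74.6%) and monocytes at or above 20% at 923 (28.6%), while sperm was at or below 80% at 164 (5.09%). At 2145 non-members (66.6%), monocytes were below 20%, sperm above 80% and fibroblasts at or below 80%. The removal of members fixes the fibroblast side of this pattern, as every CpG that also passed 80% in fibroblasts was a member.

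The group with the most members lay on chromosome 17 from 73736432 to 73738766, a span of 2335 bp with 36 members among 54 covered CpGs. Its members averaged 6.37% and 2.47% in monocytes, 99.3% and 98.6% in sperm and 94.1% and 94.7% in fibroblasts. The 18 non-members inside it were at 19.2% and 13.7% in monocytes, against 80.8% and 75.8% in fibroblasts and 99.5% and 98.3% in sperm. In the 1000 bp on either side, 34 covered CpGs averaged 91.6% and 90.7% in monocytes, close to 98.3% and 98.1% in sperm and 94.5% and 96.3% in fibroblasts. The low methylation of monocytes thus ended near the outermost members, as the plot of this group shows.

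**Figure D2:**
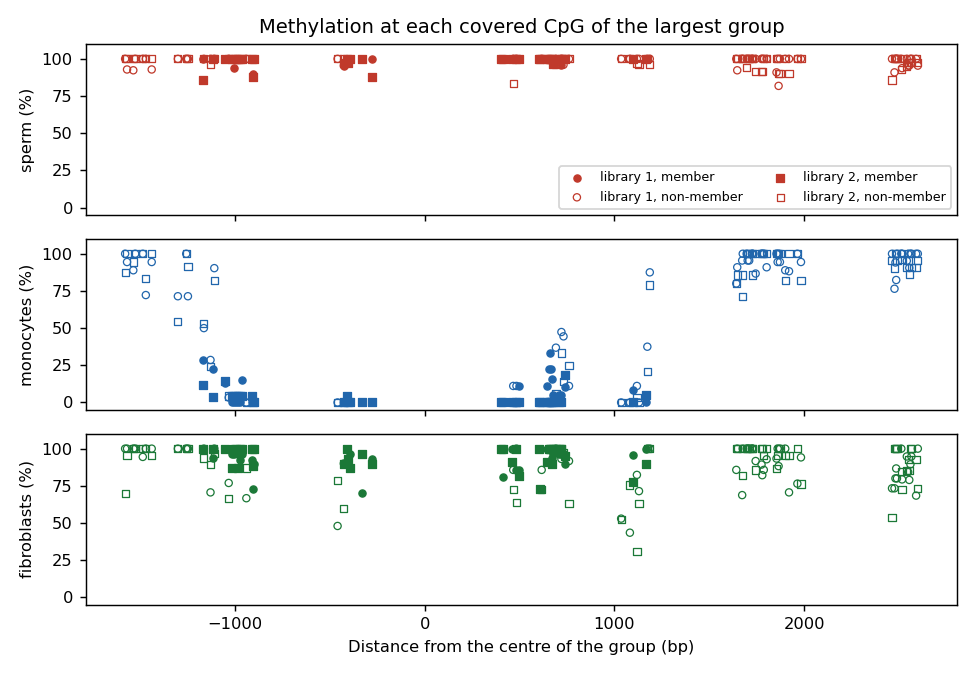
Methylation in percent (vertical axis) at each covered CpG of the group on chromosome 17 and its surroundings, by distance in bp from the centre of the group, with a panel per cell type. Circles and squares are the libraries of replicates 1 and 2, filled for members and open for non-members. Members average 6.37% and 2.47% in monocytes, and the 34 CpGs within 1000 bp outside the group 91.6% and 90.7%.

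The second group, on chromosome 22 from 59460265 to 59462303, had 30 members at 5.12% and 2.86% in monocytes, 98.1% and 99.6% in sperm and 92.2% and 92.8% in fibroblasts. Monocytes stayed partly methylated outside it, at 43.3% and 48.8% over 10 covered CpGs, where fibroblasts were at 87.0% and 78.8%. The third, on chromosome 11 from 104024276 to 104025603, had 27 members among 52 covered CpGs. Its members averaged 2.61% and 0.926% in monocytes and its 25 non-members 3.67% and 2.60%. Fibroblasts averaged 68.5% and 59.7% at those non-members, and sperm 97.9% and 94.2%. The fourth, on chromosome 11 from 88712735 to 88713431, was more compact, with 26 members among 31 covered CpGs in 697 bp. Its members averaged 1.09% and 1.02% in monocytes, 97.7% and 97.9% in sperm and 91.6% and 92.0% in fibroblasts, and the animals of each cell type differed little.

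A pair of groups lay close to each other on chromosome 18. The first, from 11631517 to 11633698, had 25 members at 2.95% and 3.03% in monocytes, 97.8% and 94.7% in sperm and 92.3% and 91.5% in fibroblasts. The other, from 11415138 to 11416233, had 24 members among 26 covered CpGs, at 8.34% and 4.03% in monocytes, 98.0% in both sperm libraries and 96.0% and 94.4% in fibroblasts. Around this second group the values did not return to high methylation. Over 15 covered CpGs within 1000 bp, monocytes were at 0.333% and 0%, fibroblasts at 25.5% and 51.3% and sperm at 88.8% and 97.1%. The low values of monocytes thus extended past the members, where by the rule such CpGs had missed a limit in fibroblasts or sperm.

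Chromosome 29 held a further pair with 24 members each. From 49738950 to 49740619, members averaged 1.68% and 0.167% in monocytes, 98.0% and 98.97% in sperm and 86.6% and 88.4% in fibroblasts. From 50181000 to 50182139, they averaged 4.37% and 3.62% in monocytes, 98.8% and 95.9% in sperm and 91.3% and 91.7% in fibroblasts. The flanks differed between them, with monocytes at 49.8% and 43.2% over 9 CpGs around the first and at 86.3% and 91.6% over 6 CpGs around the second. The last groups of the 10 largest had 23 members each. On chromosome 15, from 78417881 to 78420114, the monocyte animals differed more than in the other named groups, at 9.14% and 2.74%, with sperm at 98.3% and 99.2% and fibroblasts at 96.5% and 95.3%. On chromosome 17, from 71436443 to 71437368, members averaged 0.522% and 0.932% in monocytes, 96.2% and 91.9% in sperm and 89.0% and 91.8% in fibroblasts.

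The member with the most reads, 308 over the 6 libraries, was a single CpG on chromosome 11 at 107098712. Monocytes had 8 methylated of 64 reads (12.5%, 95% Wilson confidence interval from 6.47% to 22.8%) and 3 of 47 (6.38%, from 2.19% to 17.2%). Sperm had 18 of 19 (94.7%, from 75.4% to 99.1%) and 26 of 34 (76.5%, from 60.0% to 87.6%). Fibroblasts had 47 of 61 (77.0%, from 65.1% to 85.8%) and 72 of 83 (86.7%, from 77.8% to 92.4%). A library of sperm and a library of fibroblasts were below 80% there, although both cell types passed the limit on summed reads. Intervals cover counting error only.

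The CpGs around members were then examined. The rule did not use their values, apart from the removal of members. Of those within 1000 bp, however, 16814 lay within 290 bp of a member. These can share fragments and reads with the member, so that their values are not independent of the choice. Within 1000 bp of a member, 30199 non-member CpGs averaged 52.9% and 52.6% in monocytes, 92.4% and 91.9% in sperm and 71.3% and 71.6% in fibroblasts. Both monocyte libraries lay below the 4 others, with a mean difference of -29.0 points (p = 0.133, exact permutation test over libraries, two-sided). The lowest p possible in this test, 0.0667, was not reached, because the sperm libraries lay still further from the rest than the monocyte libraries did. The mean difference was -39.4 points against sperm and -18.7 points against fibroblasts (p = 0.333 in both exact permutation tests, which is the lowest value possible with 2 libraries in each group). These differences were larger than the spread between animals, which was 0.228 points in monocytes, 0.354 in sperm and 0.190 in fibroblasts (SD, n = 2). At 291 to 1000 bp, the difference of monocytes from the other 4 libraries was -6.36 points (p = 0.467, exact permutation test over libraries). Over all CpGs the order was different, with monocytes 6.05 points above the other 4 libraries.

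The difference narrowed with distance from the members. At 1 to 25 bp from the nearest member, non-members were at 16.6 ± 0.702% in monocytes (SD, n = 2), 95.2 ± 0.290% in sperm and 72.4 ± 0.567% in fibroblasts. Monocytes rose to 24.1% at 26 to 50 bp, 34.9% at 51 to 100 bp and 57.8% at 101 to 290 bp, and they reached 71.7% at 291 to 500 bp and 73.7% at 501 to 1000 bp. CpGs nearer than about a fragment can lie on the same reads as a member, because the genomic fragments measured up to 290 bp and were read from both ends for 75 bp. Beyond 290 bp, over 13385 CpGs, monocytes were at 73.2% and 73.0%, sperm at 88.1% and 87.6% and fibroblasts at 70.7% and 71.4%. There the difference of monocytes was -14.7 points against sperm but 2.01 points against fibroblasts (p = 0.333 in both exact permutation tests). The plot of methylation by distance shows that the fibroblast values hardly changed within 500 bp, between 69.0% and 73.6% in each library, and that sperm stayed above 92% over the same distance.

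**Figure D3:**
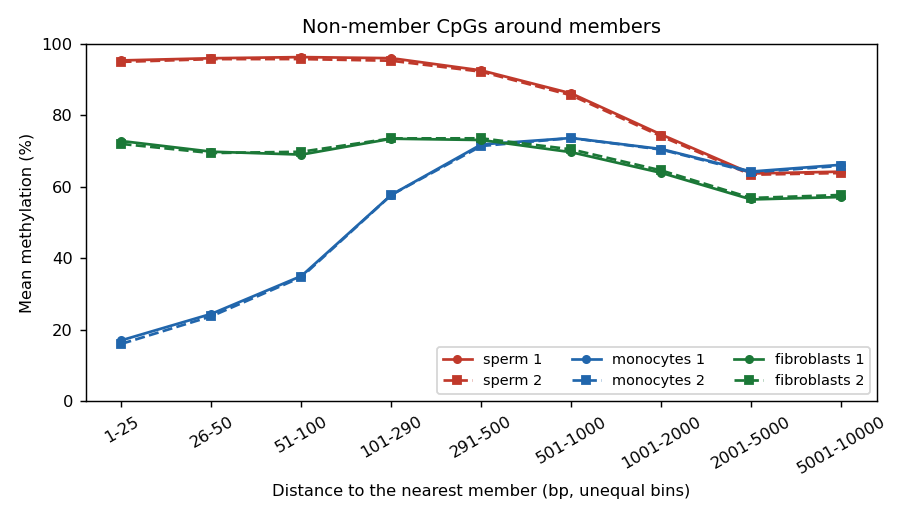
Mean methylation in percent of non-member CpGs (vertical axis) in classes of distance to the nearest member in bp (horizontal axis, unequal classes), with a line for each of the 6 libraries. Monocytes rise from 16.6% at 1 to 25 bp to 73.7% at 501 to 1000 bp, sperm is at 95.2% and 85.9% in the same classes and fibroblasts lie between 69.4% and 73.5% over all classes up to 1000 bp.

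The same difference was counted CpG by CpG with the likelihood-ratio test on summed reads and the same thresholds, adjusted over all CpGs, which calls differentially methylated CpGs (DMCs). Over all CpGs, 18.2% were DMCs between monocytes and sperm and 5.52% were lower in monocytes. Within 1000 bp of members, 14988 of the 30199 non-members (49.6%) were DMCs lower in monocytes than in sperm. Another 669 (2.22%) were higher, against 12.7% of all CpGs. Sperm averaged 92.2% at these non-members and 49.3% over all CpGs, and a CpG high in sperm can hardly be called higher in monocytes. The shares over all CpGs are therefore not a like background. Against fibroblasts, 16.9% of all CpGs were DMCs and 3.34% were lower in monocytes. Near members, 11011 non-members (36.5%) were lower in monocytes than in fibroblasts and 1739 (5.76%) were higher, against 13.5% of all CpGs. Fibroblasts averaged 71.4% at these non-members and 46.3% over all CpGs, so that the same limit holds. Between the 2 monocyte libraries, the same test called 40 of the 30199 CpGs (0.132%), against 0.172% of all CpGs. It called 199 (0.659%) between the sperm libraries, against 0.307%, and 404 (1.34%) between the fibroblast libraries, against 0.689%. The 8939 members were all called in both comparisons, which the choice fixes.

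This test holds no variation between animals. With the edgeR quasi-likelihood test, which estimates such variation, 11080 non-members (36.7%) near members were lower in monocytes than in sperm, against 3.18% of all CpGs (12.2% in either direction). Against fibroblasts, edgeR called 3393 (11.2%) lower, against 1.16% of all CpGs (3.98% in either direction), so that the number of calls depended on the test in this comparison. At 291 to 1000 bp, 2816 of 13385 CpGs (21.0%) were lower in monocytes than in sperm by the likelihood-ratio test and 1754 (13.1%) by edgeR. Against fibroblasts, the likelihood-ratio test called 1269 (9.48%) lower and 1478 (11.04%) higher in monocytes at this distance, against 3.34% and 13.5% of all CpGs. With edgeR, 220 (1.64%) were lower and 193 (1.44%) higher, against 1.16% and 2.82% of all CpGs. Calls beyond 290 bp thus went in both directions, as they did over all CpGs. By both tests, the share called lower was above that of all CpGs and the share called higher was below it.

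Nearby CpGs were also compared at a fixed state of the other cell types, where those below 20% in monocytes are the members themselves. Among non-members above 80% in both sperm and fibroblasts, monocytes were between 20% and 80% at 5.28% of 395613 CpGs. Within 25 bp of a member this share was 90.9% of 1246 CpGs, with monocytes at 42.4% and 41.2%. It fell to 69.3% at 51 to 100 bp, 37.0% at 101 to 290 bp and 14.2% at 291 to 1000 bp, where monocytes were at 90.1% and 89.99%. In this class, intermediate values were thus more frequent close to members. Over all non-members within 25 bp, whatever the state of the other cells, 65.6% were below 20% in monocytes. Of all covered CpGs, 39.8% were below 20% in monocytes, and 35.4% were so in all 3 cell types.

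CpGs that the rule never saw were also described in monocytes. Around members, 1688 CpGs within 50 bp were covered by 5 to 500 reads in both monocyte libraries but not in every other library. They were at 10.9% and 9.96% in monocytes, and 1422 of them (84.2%) were below 20%. Between 51 and 100 bp, 770 of 1145 (67.2%) were below 20%, and at 291 to 1000 bp 940 of 4500 (20.9%). Among such CpGs more than 10000 bp from members, 27.3% were below 20%. The low methylation of monocytes at short distance was therefore also read at CpGs that had not been eligible. CpGs this close can lie on the same reads and fragments as members, so that their values are not independent of the choice. Sperm and fibroblasts were not compared at these CpGs, so that low methylation in monocytes alone is not shown there.

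Methylation rose over different distances around the 3 mirrored sets, each read in its own cell type. Around CpGs unmethylated only in sperm, sperm was at 13.9 ± 0.184% at 1 to 25 bp and still at 17.0 ± 1.01% at 101 to 290 bp (SD, n = 2). Around CpGs unmethylated only in fibroblasts, fibroblasts were already at 33.6 ± 1.14% at 1 to 25 bp and at 59.2 ± 0.591% at 101 to 290 bp. Monocytes resembled sperm next to members, at 16.6%, and fibroblasts at 101 to 290 bp, at 57.8 ± 0.0297%. These levels come from different CpGs and their differences were not tested. The plot of the 3 sets shows that sperm rose later, to 25.0% at 501 to 1000 bp and 43.7% at 1001 to 2000 bp. The surroundings of the sperm set were low in the other cells too, with monocytes at 39.7% and fibroblasts at 34.2% at 501 to 1000 bp. Around members, sperm was at 85.9% and fibroblasts at 70.1% at that distance. The sperm set also had more covered CpGs nearby, with a median of 21 within 500 bp, against 10 for members and 7 for the fibroblast set.

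**Figure D4:**
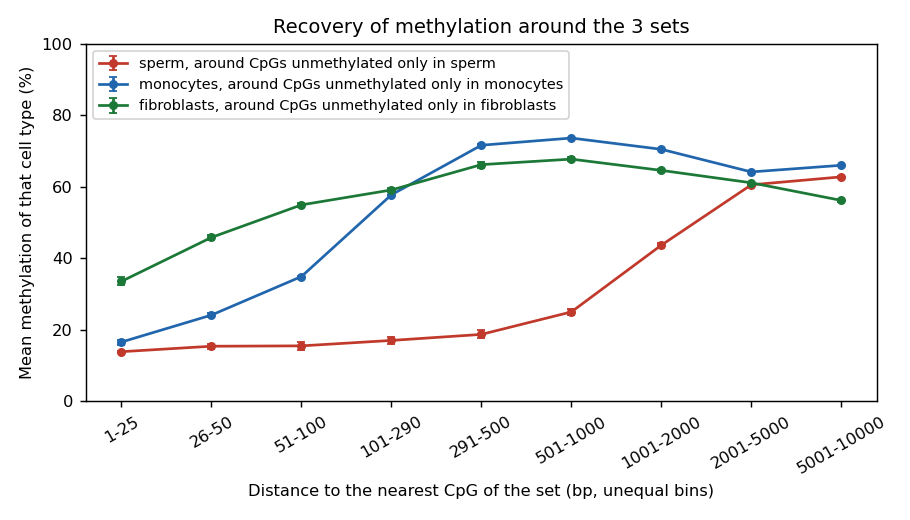
Mean methylation in percent of the named cell type (vertical axis) at CpGs outside each set, in classes of distance to the nearest CpG of that set in bp (horizontal axis, unequal classes). Points are means of 2 libraries and bars their SD. At 101 to 290 bp, monocytes are at 57.8%, fibroblasts at 59.2% and sperm at 17.0%.

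Groups differed in what surrounded them. Of the 1144 groups of 3 or more, 770 had at least 3 covered CpGs within 1000 bp outside the group. Monocytes averaged below 20% in these flanks around 134 groups (17.4%), between 20% and 80% around 474 (61.6%) and above 80% around 162 (21.0%). Around the 134 groups, fibroblasts were at 53.7% and 52.4% and sperm at 90.2% and 89.8%. Around the 162 groups, fibroblasts were at 83.8% and 84.5% and sperm at 95.5% and 95.2%, with monocytes at 87.4% and 87.7%. Most groups had flanks of intermediate methylation in monocytes. The fibroblast values of the flanks low in monocytes were limited by the rule, since a CpG low in monocytes and high in the other cells would have been a member.

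Single members were examined in the same way. Within 100 bp of the 1071 single members that were the nearest member of a covered non-member, 3661 non-members averaged 33.4% and 32.7% in monocytes, 71.0% in both fibroblast libraries and 95.8% and 95.2% in sperm. Of these, 44.9% were below 20% in monocytes and 13.3% above 80%. Next to groups of 10 or more, 1348 non-members averaged 15.7% and 14.9% in monocytes, with 69.4% below 20% and 2.60% above 80%. Of all covered CpGs, 39.8% were below 20% in monocytes, but 35.4% were below 20% in all 3 cell types. The non-members next to single members were high in sperm, so that the share over all CpGs is not a like background for them. The share next to large groups was higher than next to single members, with no test of the difference.

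The members were read about as deeply as other CpGs. The median coverage of members was 19 and 16 reads in monocytes, 15 and 17 in sperm and 20 and 23 in fibroblasts, against 18 and 15, 16 and 18, and 21 and 25 for all CpGs. They lay in sequence with fewer covered CpGs, with a median of 5 others within 100 bp and 10 within 500 bp, against 7 and 16 for all CpGs. The CpGs above 80% in all 3 cell types had the same medians, 5 and 10. CpGs below 20% in all 3 cell types, in contrast, had 11 others within 100 bp and 32 within 500 bp. In the density of covered CpGs, the members were thus like methylated sequence and unlike the sequence unmethylated in every cell type.

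Members were spread over all autosomes, from 2.43 per 1000 covered CpGs on chromosome 10 to 10.5 on chromosome 22. The last 10 Mb of the chromosomes, measured from the last covered CpG, held 4624 members (51.7%) and 36.8% of all covered CpGs. Members were more frequent per 1000 covered CpGs in the last 10 Mb than in the rest of the chromosome on 22 of 29 chromosomes. The largest difference was on chromosome 22, with 14.0 per 1000 against 5.03, and chromosomes 4, 7, 10, 14, 16, 18 and 20 had the opposite order. Chromosome ends held a similar share, 50.1%, of the CpGs above 80% in all 3 cell types, so that this position was not particular to members.

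**Figure D5:**
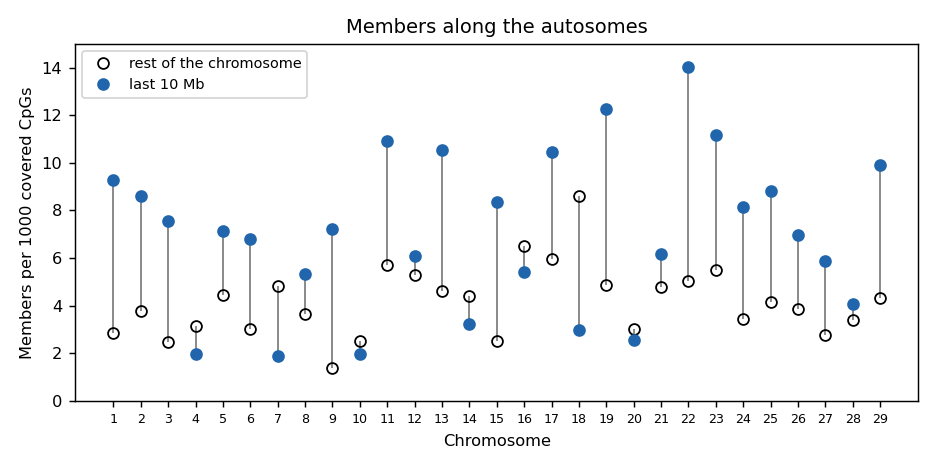
Members per 1000 covered CpGs (vertical axis) on each autosome (horizontal axis), in the last 10 Mb (filled) and in the rest of the chromosome (open). Chromosome 22 reaches 14.0 in its last 10 Mb, and 22 of 29 chromosomes have the higher value there.

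Looked at in windows of 1 Mb, which were chosen after their counts were seen, the most members lay on chromosome 11 from 104 to 105 Mb, with 188 of 8524 covered CpGs (22.1 per 1000). The window of chromosome 18 from 11 to 12 Mb, outside the last 10 Mb, had 172 members among 4161 covered CpGs and thus the highest density of the 5 fullest windows, 41.3 per 1000. It contains both groups named above on this chromosome. On chromosome 22, the neighbouring windows from 59 to 60 Mb and from 60 to 61 Mb held 164 and 124 members, at 22.7 and 15.6 per 1000, and on chromosome 17 the window from 73 to 74 Mb held 130, at 14.4 per 1000.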

How the data were processed

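RRBS libraries of MspI fragments of 40 to 290 bp were sequenced as 75 bp paired-end reads. The submitters' processing notes name Trim Galore 0.3.7, Bismark 0.14.3, Bowtie, methylKit and the UMD3.1 build. The authors deposited, for each CpG and library, the coverage as counts of reads, not normalized, and the percent of methylated reads, cut to 1 decimal. Each CpG is a single entry, so that strands could not be compared. Methylated reads were recovered as the nearest whole number to coverage times percent. In this way the deposited percentage was obtained again for every CpG covered by up to 500 reads. The members and lists were chosen with earlier results of these data known.

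DMCs were called on summed reads by a likelihood-ratio test (logistic model). Alternatives were Fisher's exact test, a Cochran-Mantel-Haenszel test with the replicate number as stratum and the edgeR quasi-likelihood test on all 6 libraries (common dispersion 0.11). All were tested on simulated data. The simulated reads held no variation between animals and only large changes, so that error rates in the real data were not checked. Library averages were tested by exact permutation of the libraries, two-sided, whose smallest p is 0.333 for 2 libraries against 2 and 0.0667 for 2 against 4. The median coverage per library was 9 to 14 reads over all CpGs listed and 15 to 25 reads over the CpGs used here, which makes single percentages coarse. The groups named are the 10 with the most members, groups being members at most 1000 bp apart, besides the deepest member and those at the limits. Python 3.11.15, numpy 2.4.6, scipy 1.17.1, numba 0.67.0, R 4.3.3 and edgeR 4.0.16 were used. Gene lists and sequence motifs were not analysed here, because no sequence or annotation of UMD3.1 was used.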

Additional observations from a re-analysis of the deposited data

Results flagged for a closer look

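The same limits were also met outside the autosomes, in data that the comparisons above do not use and for which there is no control sample. On the X chromosome, 33 of 28511 covered CpGs met them, or 1.16 per 1000, with averages of 8.23% and 6.59% in monocytes, 97.9% and 98.4% in sperm and 93.8% and 94.7% in fibroblasts. Sperm came from males and both somatic cell types from females, so that sex and cell type cannot be told apart there. On unplaced sequences, 56 of 10073 covered CpGs met the limits, or 5.56 per 1000, with 4.46% and 6.75% in monocytes, 97.8% in both sperm libraries and 91.4% and 92.6% in fibroblasts.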

How the results depend on the processing

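The number of members was 3770 with limits of 10% and 90%, 14656 with limits of 30% and 70%, 5494 at a minimum coverage of 10 reads and 5710 with every library within the limits, and between 9278 and 9681 when a library was left out. The share in groups of 3 or more was 72.5% with 500 bp and 75.2% with 2000 bp as the joining distance, 63.9% with limits of 10% and 90%, 75.0% with 30% and 70%, 71.8% at a minimum coverage of 10, and between 71.4% and 74.1% without a library. CpGs met again in replicate 2 were 63.8% at a minimum coverage of 10 and 77.1% when read with limits of 30% and 70%. The difference at nearby CpGs between monocytes and the other cells was below 0 under every alternative, but its size depended on distance, at -48.8 points within 250 bp and -6.36 points at 291 to 1000 bp (exact permutation test, p = 0.467). Without a library it was between -32.4 and -24.9 points. Against fibroblasts it changed sign beyond 290 bp, to 2.01 points. Near members, a minimum coverage of 10, which leaves fewer CpGs, gave 7882 DMCs with sperm and 6723 with fibroblasts, and over all CpGs 180010 and 164467. The edgeR test gave 3599 near members and 61341 over all CpGs between monocytes and fibroblasts. Of these, 94.3% and 29.2% were lower in monocytes, against 86.4% and 19.8% with the likelihood-ratio test. Without a library, the latter comparison had between 172436 and 229880 DMCs over all CpGs, the lowest without monocyte replicate 1. The replicate numbers name different animals, and deviations of same-numbered libraries correlated at 0.00342 with sperm and -0.00410 with fibroblasts. With the replicate number as a block, 15136 and 11993 CpGs near members were called, against 15657 and 12750 without it, and 268472 and 233992 over all CpGs. Counting both strands of a CpG once was not run, since each CpG is a single entry. The causes of these changes were not tested.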
